A study of Mus musculus with 6 samples.

Results

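The E2F transcription factors E2f1 to E2f8 and the Rb-like pocket proteins Rbl1 (p107) and Rbl2 (p130) are the genes described here, taken by symbol from a table of RNA sequencing counts. All 10 were found among 43074 gene symbols, all 10 passed the filter on low counts, and 17433 genes were tested. The libraries came from C2C12, a wild-type mouse myoblast cell line derived from skeletal muscle, in 3 groups of 2. Day 0 cells were non-treated and had been kept in growth medium with fetal bovine serum. DMSO cells were kept for 4 days in differentiation medium with horse serum and DMSO, the solvent control. 4-PBA cells were kept for the same 4 days in the same medium with 1 mM 4-phenylbutyric acid, an aromatic short-chain fatty acid that inhibits histone deacetylases and helps proteins fold. The labels do not say whether the 4-PBA cells also received DMSO. Day 4 therefore differs from day 0 in time, serum and added agent together, and these cannot be told apart. The labels do not say whether the 2 libraries of a group came from separate cultures, so p-values measure only the spread between these libraries, which may be technical.

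E2F factors bind promoters of genes for DNA replication and cell division. E2f1, E2f2 and E2f3 are the activators, which the retinoblastoma protein Rb1 holds in check. E2f4 and E2f5 are repressors that act with p107 and p130, E2f6 represses without a pocket protein as part of a Polycomb complex, and E2f7 and E2f8 are atypical repressors that bind DNA without a dimerisation partner. In resting and differentiated cells p130 and E2f4 assemble with the MuvB core into the DREAM complex, which keeps cell cycle genes silent. p107 is typical of cycling cells. Myoblasts leave the cell cycle for good when they form myotubes, and Rb1 is known to be needed for that exit.

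Total counts lay between 47908926 and 74697397 per library, and every member had between 977 and 7668 counts in each library. For several members, such as E2f3 and E2f6 under DMSO, the replicates lay closer together than counting error alone would place them on average, so an SD of 2 libraries can understate the error of a level. The 8 muscle markers that were checked were present in all libraries, at 1346 and 1355 CPM summed at day 0. At day 4 they summed to 7288 and 7507 CPM under DMSO and to 7093 and 7193 CPM under 4-PBA. Between 4-PBA and DMSO, 4 of the 8 were called, 1 higher and 3 lower, against 4.90% of all tested genes. Markers of other lineages were low: the summed level of 4 genes was at most 0.165 CPM for adipocytes, 3.36 for osteoblasts, 2.58 for endothelium and 5.74 for leukocytes, and Ptprc, which defines leukocytes, was at most 0.0617 CPM. The 4 reserve cell markers (Myf5, Pax7, Cd34 and Sdc4; reserve cells are the mononucleated cells left in a differentiated culture) summed to 315 and 316 CPM at day 0 and to between 201 and 227 CPM at day 4. That sum is mostly Sdc4, and the markers split: with DMSO against day 0, Sdc4 (log2 fold change -0.67) and Myf5 (-1.14) fell, while Cd34 (0.35) and the low Pax7 (1.80, at 0.304 ± 0.00672 and 1.06 ± 0.0488 CPM) rose. CPM are counts per 1000000 after TMM scaling. They give a gene's share of the RNA of the whole culture, so fewer cells expressing a gene and less of its RNA per cell cannot be told apart. In GENCODE M21 the exons of E2f5, E2f7, E2f8, Rbl2 and Rb1 overlap antisense genes, and since the strand setting of the counting is not given in the sources used here, their values are uncertain to that extent. The same holds for these companion genes named further on: Lin37, Rbbp4, Ccnd1, Ccnd3, Cdk6, Ccne2, Cdkn1a, Sin3a, Kdm5a, Suv39h1, Rbbp7, Mcm7, Chaf1a, Ezh2, Plk1, Cdc20, L3mbtl2, Rnf2, Tuba3a and Cd34. Exons of Foxm1, Smarca4 and Mcm7 overlap genes on their own strand.

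Promoter windows from RefSeq (GRCm38.p6, 250 bases before to 50 after an annotated start) were matched for 8 of the 10 members, in 10 windows. E2f4 and E2f5 had no window. The submitters' processing notes name GRCm39 as the genome of the counts, and no coordinate was converted. Both strands were searched for a pair of motifs. The E2F site was taken as TTTCCCGC, TTTCGCGC, TTTGCCGC or TTTGGCGC, and the CHR, the site through which MuvB complexes bind late cell cycle promoters, as TTTGAA or TTCGAA. An E2F site was found in 744 of 32851 windows of all genes (2.26%) and a CHR in 6316 (19.2%). Among the members, 4 of 10 windows held an E2F site and 4 held a CHR. The 5 windows below belong to E2f2 and Rbl2, the members that rose at day 4, and to Rbl1, E2f7 and E2f8, which fell along with the target genes and whose windows hold a motif. Capitals mark the motifs, and positions count from 1 at the start base and from -1 before it. E2f2 (chr4:136172024-136172323, plus strand) has TTTGGCGC at 40, and this start lies upstream of the first start in GENCODE M21. A second E2f2 window (chr4:136180532-136180831), at a start further downstream, has no E2F site and has TTTGAA at -31. Rbl1 (chr2:157204485-157204784, minus strand) has TTTCGCGC at -18. E2f7 (chr10:110745189-110745488, plus strand) has TTTCCCGC on the opposite strand at -198. E2f8 (chr7:48881547-48881846, minus strand) and Rbl2 (chr8:91069807-91070106, plus strand) have TTTGAA on the opposite strand at -20 and -201, and neither window holds the E2F letters.
E2f2: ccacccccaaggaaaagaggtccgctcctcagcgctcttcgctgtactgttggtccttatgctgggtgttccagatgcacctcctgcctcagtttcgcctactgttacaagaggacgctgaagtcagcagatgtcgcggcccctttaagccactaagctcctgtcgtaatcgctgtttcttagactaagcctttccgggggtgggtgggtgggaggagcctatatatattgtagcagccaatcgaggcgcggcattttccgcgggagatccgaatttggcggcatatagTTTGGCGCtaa
Rbl1: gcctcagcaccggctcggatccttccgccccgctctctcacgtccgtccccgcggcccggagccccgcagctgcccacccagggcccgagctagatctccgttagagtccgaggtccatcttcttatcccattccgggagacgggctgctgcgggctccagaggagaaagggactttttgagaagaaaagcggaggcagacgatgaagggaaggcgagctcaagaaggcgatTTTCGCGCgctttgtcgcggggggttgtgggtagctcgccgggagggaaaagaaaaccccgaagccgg
E2f7: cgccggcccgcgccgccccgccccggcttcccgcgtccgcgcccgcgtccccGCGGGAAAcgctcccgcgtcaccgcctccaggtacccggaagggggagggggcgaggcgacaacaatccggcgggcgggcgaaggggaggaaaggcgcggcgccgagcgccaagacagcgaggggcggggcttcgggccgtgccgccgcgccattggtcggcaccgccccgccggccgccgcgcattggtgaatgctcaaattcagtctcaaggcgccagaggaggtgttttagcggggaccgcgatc
E2f8: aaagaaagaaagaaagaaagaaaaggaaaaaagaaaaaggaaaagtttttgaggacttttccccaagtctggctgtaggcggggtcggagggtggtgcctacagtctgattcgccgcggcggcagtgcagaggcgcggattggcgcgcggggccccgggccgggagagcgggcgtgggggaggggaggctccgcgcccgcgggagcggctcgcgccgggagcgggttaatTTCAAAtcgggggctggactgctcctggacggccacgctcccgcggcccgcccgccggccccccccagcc
Rbl2: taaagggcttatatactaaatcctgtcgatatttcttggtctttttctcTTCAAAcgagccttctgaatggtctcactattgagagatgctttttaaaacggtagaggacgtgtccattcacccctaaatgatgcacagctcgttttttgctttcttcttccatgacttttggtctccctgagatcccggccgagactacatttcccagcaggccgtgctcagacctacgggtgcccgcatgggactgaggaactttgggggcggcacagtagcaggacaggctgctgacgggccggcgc

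E2f3, which also fell, has 2 windows that are not printed, and the upstream one holds both TTTCCCGC (opposite strand, at -11) and TTTGAA (at -23). The other E2f3 window and the window of E2f6 held neither motif. The count table has 1 row per gene, so transcripts from the 2 starts of E2f2 or of E2f3 were not separated. The start base of the E2f1 window lies 466 bases downstream of the first E2f1 start in GENCODE M21, and the window held neither motif, so it does not show the region before that start. A match to these letters is a description and not a bound site.

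After 4 days of differentiation with DMSO, 8 of the 10 members were lower than at day 0, and E2f2 and Rbl2 were higher. The largest fall was in Rbl1 (3.02-fold), followed by E2f7 (2.65-fold), E2f1 (1.92-fold) and E2f8 (1.79-fold), while E2f2 rose 1.81-fold and Rbl2 1.28-fold. edgeR's quasi-likelihood test with Benjamini-Hochberg adjustment over all genes called all 10 members, against a background in which 66.3% of the 17433 tested genes were called (33.8% higher and 32.6% lower). With so many genes called, the count of members says little, and the sizes and directions below carry the description. The median log2 fold change was -0.52 over the members and 0.023 over all tested genes.

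**Figure D1:**
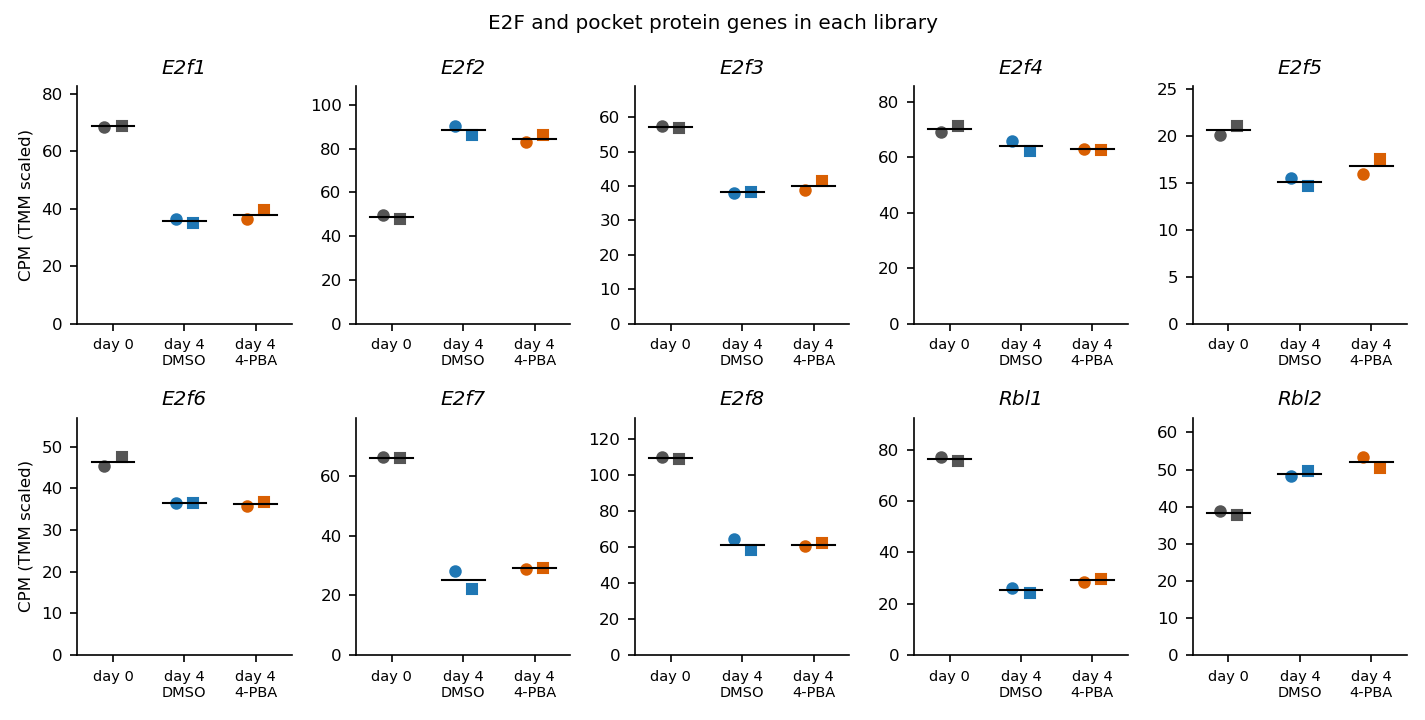
Expression of the 10 members in each library, in CPM after TMM scaling on axes that start at 0. Circles are replicate 1, squares replicate 2 and lines the mean of 2 libraries. Day 0 lies apart from all 4 day 4 libraries in each panel, below them for E2f2 and Rbl2 and above them for the other 8. The share of all tested genes that lie apart in this way was not counted.

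The activators did not move together. E2f1, which drives entry into S phase, had 68.6 and 68.9 CPM at day 0, 36.5 and 35.0 under DMSO, and 36.2 and 39.7 under 4-PBA. The day 4 libraries lay at about the same level, far below day 0, and with DMSO the log2 fold change was -0.94 (SE 0.0506, adjusted p 3.65e-18). E2f3, which also drives S phase, had 57.6 and 57.0 CPM at day 0, 38.1 and 38.2 under DMSO, and 38.8 and 41.5 under 4-PBA, again with no overlap between day 0 and day 4. Its log2 fold change with DMSO was -0.59 (SE 0.0496, adjusted p 1.02e-12). E2f2 went the other way, from 49.7 and 48.0 CPM at day 0 to 90.6 and 86.1 under DMSO and 82.9 and 86.3 under 4-PBA. Each day 4 library was above both day 0 libraries, and the log2 fold change with DMSO was 0.86 (SE 0.0436, adjusted p 8.26e-19).

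The repressors that need a pocket protein had smaller fold changes with DMSO than the activators, clearly so only for E2f4. The 95% intervals of the log2 fold change of E2f5 (-0.61 to -0.30) and of the activator E2f3 (-0.69 to -0.48) overlapped. E2f4, the main E2F of resting cells, had 69.0 and 71.4 CPM at day 0, 65.9 and 62.2 under DMSO, and 63.0 and 62.5 under 4-PBA. Its fall with DMSO was the smallest of the members, with a log2 fold change of -0.13 (SE 0.0441, adjusted p 0.00796). The call was lost without day 0 replicate 2 (-0.11, adjusted p 0.115) and without DMSO replicate 2 (-0.093, adjusted p 0.0967), and over all alternatives the adjusted p ran from 0.00118 to 0.115. E2f5 had 20.1 and 21.1 CPM at day 0, 15.5 and 14.6 under DMSO, and 16.0 and 17.6 under 4-PBA, and gave a log2 fold change of -0.46 with DMSO (SE 0.0755, adjusted p 2.13e-06). For the Polycomb-linked E2f6 the values were 45.3 and 47.5 CPM at day 0, 36.5 and 36.4 under DMSO, and 35.8 and 36.6 under 4-PBA. The day 4 libraries of E2f6 lay within 1 CPM of each other, and the log2 fold change with DMSO was -0.35 (SE 0.0514, adjusted p 2.86e-07).

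Both atypical repressors, which are themselves made in S phase and limit E2F output, fell at day 4. E2f7 went from 66.3 and 66.0 CPM at day 0 to 28.1 and 22.0 under DMSO, and to 28.7 and 29.3 under 4-PBA. Its DMSO replicates lay further apart, relative to their level, than any other pair of a member, and the log2 fold change with DMSO was -1.41 (SE 0.0874, adjusted p 4.99e-08), or -1.24 and -1.59 with 1 DMSO library left out. E2f8 went from 110.2 and 109.2 CPM at day 0 to 64.7 and 58.3 under DMSO and 60.5 and 62.4 under 4-PBA. Both day 4 groups lay far below day 0 and overlapped each other, and its log2 fold change with DMSO was -0.84 (SE 0.0444, adjusted p 8.66e-18).

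The pocket proteins moved in opposite directions. Rbl1 fell from 77.2 and 75.7 CPM at day 0 to 26.3 and 24.3 under DMSO and to 28.4 and 29.8 under 4-PBA, a log2 fold change of -1.60 with DMSO (SE 0.0523, adjusted p 1.92e-24). Rbl2 rose from 38.9 and 37.7 CPM to 48.2 and 49.5 under DMSO and to 53.4 and 50.5 under 4-PBA, a log2 fold change of 0.35 with DMSO (SE 0.0499, adjusted p 1.25e-07). Neither gene's day 4 libraries overlapped day 0. Per kilobase of the longest transcript, the log2 ratio of Rbl1 to Rbl2 was 1.01 and 1.02 in the day 0 libraries, -0.86 and -1.01 under DMSO, and -0.89 and -0.74 under 4-PBA. Rbl1 RNA was thus the more abundant of the pair at day 0 and Rbl2 RNA at day 4, a shift of -1.95 in the mean log2 ratio with DMSO. With 2 libraries against 2, an exact permutation test of a ratio cannot give a two-sided p under 0.333, so ratios are given without a test. Rb1, the third pocket protein, rose from 41.6 ± 0.0677 to 116 ± 9.23 CPM (SD, n = 2). Of the summed CPM per kilobase of the 3 pocket proteins, Rbl1 took 48.5% in both day 0 libraries and between 12.1% and 15.3% in the day 4 libraries. Rb1 took 27.3% and 27.7%, and then between 59.0% and 63.7%, while Rbl2 stayed between 23.8% and 26.5%.

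**Figure D2:**
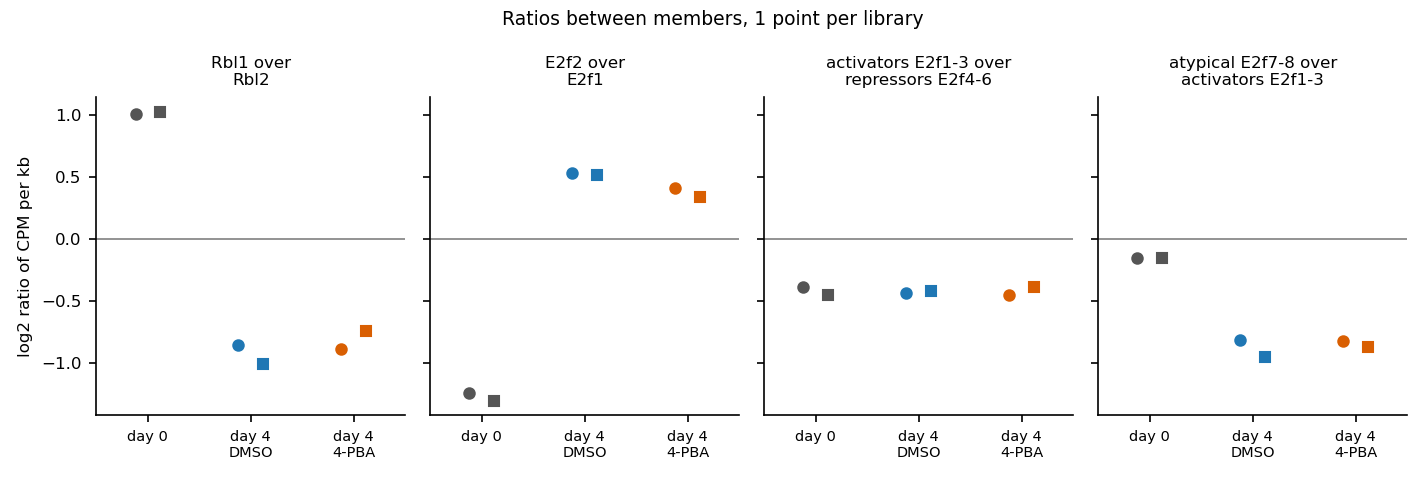
Log2 ratio of CPM per kilobase between members, 1 point per library, circles for replicate 1 and squares for replicate 2. The ratios of Rbl1 to Rbl2 and of E2f2 to E2f1 change sign between day 0 and day 4, that of the summed activators to the summed repressors stays between -0.45 and -0.39 at day 0 and between -0.46 and -0.39 at day 4, and that of the atypical members falls.

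Levels of different genes were compared as CPM per kilobase of the longest GENCODE M21 transcript, which need not be the one these cells use. At day 0 the order was E2f4 (35.2 ± 0.830, SD, n = 2), E2f8 (29.7 ± 0.183), E2f1 (25.0 ± 0.0825), Rbl1 (15.7 ± 0.213), E2f6 (15.4 ± 0.520), E2f7 (12.1 ± 0.0372), E2f5 (11.6 ± 0.384), E2f3 (11.2 ± 0.0842), E2f2 (10.3 ± 0.257) and Rbl2 (7.78 ± 0.170). The libraries of Rbl1 and E2f6 overlapped there, and those of E2f5 and E2f3 differed by less than the spread of E2f5. With DMSO it was E2f4 (32.1 ± 1.32), E2f2 (18.6 ± 0.659), E2f8 (16.7 ± 1.23), E2f1 (13.0 ± 0.383), E2f6 (12.1 ± 0.0284), Rbl2 (9.92 ± 0.187), E2f5 (8.46 ± 0.341), E2f3 (7.49 ± 0.0205), Rbl1 (5.20 ± 0.289) and E2f7 (4.57 ± 0.782). Here Rbl1 and E2f7 overlapped. E2f2 thus moved from the lowest of the E2F genes to the one after E2f4. With 4-PBA the order was that of DMSO, from E2f4 (31.5 ± 0.193) and E2f2 (17.9 ± 0.509) down to Rbl1 (5.99 ± 0.203) and E2f7 (5.30 ± 0.0763), and no neighbours overlapped.

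**Figure D3:**
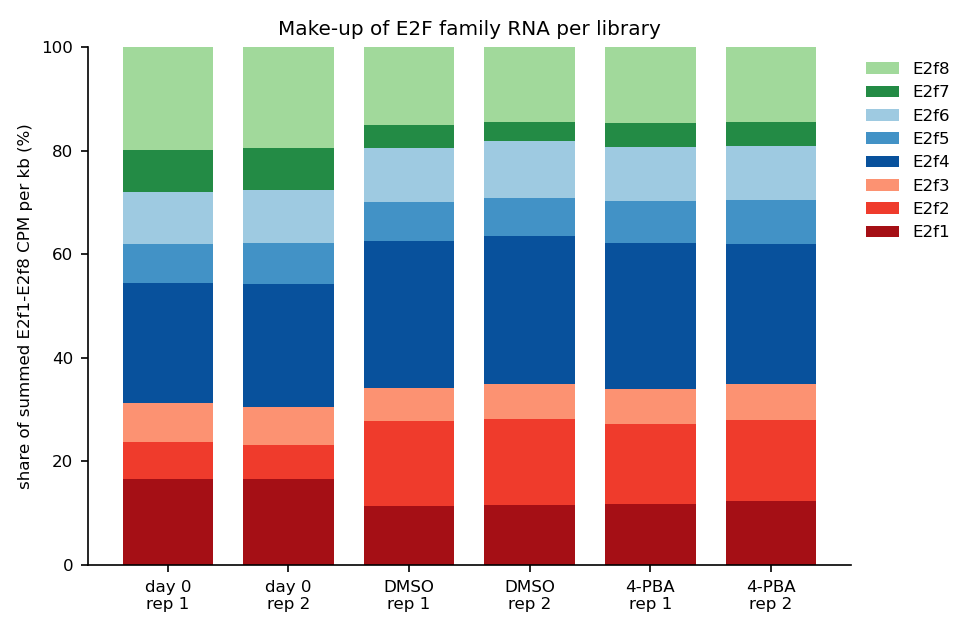
Share of each E2F gene in the summed CPM per kilobase of E2f1 to E2f8, 1 bar per library, with activators in red, E2f4 to E2f6 in blue and the atypical pair in green. E2f2 goes from about 7% at day 0 to about 16% at day 4, E2f1 from about 17% to about 12%, and the atypical pair from about 28% to about 19%.

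With E2f2 among them, the activators made up slightly more of the E2F RNA in each day 4 library than at day 0. Summed over the 3 activators, the share of E2F CPM per kilobase was 31.2% and 30.6% at day 0, 34.2% and 35.0% under DMSO, and 34.0% and 35.0% under 4-PBA. The log2 ratio of summed activators to summed repressors E2f4 to E2f6 was -0.42 ± 0.0483 at day 0 and -0.43 ± 0.00861 with DMSO (SD, n = 2), which differ by less than the spread at day 0. Without length the difference was 0.14 in place of -0.010, so its sign depends on the scale. With E2f2 left out of the activators, a choice made after seeing the data, the ratio was -0.78 ± 0.0403 at day 0 and -1.36 ± 0.0207 with DMSO. The log2 ratio of E2f2 to E2f1, also chosen after seeing the data, went from -1.28 ± 0.0407 to 0.52 ± 0.00845. The atypical pair took 28.0% and 27.5% of E2F CPM per kilobase at day 0 and between 18.1% and 19.5% at day 4. The summed E2F level itself was 149.6 and 151.4 CPM per kilobase at day 0 and between 109.7 and 116.4 at day 4.

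The dimerisation partners of the E2Fs moved apart as well. Tfdp1, the main partner, fell from 221 ± 1.86 to 106 ± 2.34 CPM with DMSO (log2 fold change -1.06, adjusted p 1.01e-24), and Tfdp2 rose from 25.6 ± 1.77 to 35.1 ± 0.211 CPM (0.46, adjusted p 2.26e-08). Of 7 DREAM and MuvB components, 5 fell and none rose, where 32.6% of all tested genes were called lower and 33.8% higher. Mybl2 (-2.42) and Foxm1 (-1.78), which replace the repressors on MuvB in cycling cells, were among those that fell, as were Lin9 (-1.60), Lin54 (-1.26) and Rbbp4 (-0.38). Lin52 (-0.15, adjusted p 0.171) and Lin37 (-0.047, adjusted p 0.684) were not called. Of 9 corepressors that pocket proteins recruit, 6 fell, led by the histone methyltransferase Suv39h1 (-1.68), the histone binder Rbbp7 (-0.67) and the deacetylase Hdac1 (-0.65). Sin3a (-0.52), Hdac2 (-0.28) and Smarca4 (-0.23) fell too, while Kdm5a (0.49) and Sin3b (0.24) rose. Arid4a (-0.058, adjusted p 0.449) was not called.

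Upstream of the pocket proteins, all 14 tested genes of the list of cyclins, CDKs and CDK inhibitors were called with DMSO, 4 higher and 10 lower. Since 66.3% of all tested genes were called, this count and that of the PRC1.6 partners below say little. Ccnd1 fell from 599 ± 2.60 to 136 ± 5.85 CPM, whereas Ccnd3, the D-type cyclin of differentiating muscle, rose from 127 ± 0.774 to 384 ± 3.19 CPM (3.03-fold, adjusted p 3.17e-31). Ccne2 (-2.41) and Ccne1 (-1.96), the cyclin E genes and themselves E2F targets, fell. Cdkn2a and Cdkn2b were not tested, with at most 0.0412 CPM for Cdkn2a and no count for Cdkn2b in any library. Of 9 PRC1.6 partners of E2f6, 8 were called, with Cbx3 (-0.85), L3mbtl2 (-0.85), Yaf2 (-0.35), Max (-0.29), Pcgf6 (-0.28) and Mga (-0.13) lower and Rybp (0.38) and Ring1 (0.28) higher. Rnf2 (-0.013, adjusted p 0.856) was not called. The 4 germline genes known to be silenced through E2f6 (Stag3, Smc1b, Slc25a31 and Tuba3a) were too low to test, at a sum of 0.0823 to 0.290 CPM over the 6 libraries.

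Most target genes fell further than the members did. All 37 G1/S genes, which include the MCM helicase and the nucleotide synthesis enzymes, and all 29 G2/M genes were called lower with DMSO, with medians of -1.90 and -1.89. Of all tested genes 32.6% were called lower, and their median was 0.023. The smallest adjusted p-values belonged to Rrm2 (-1.94), Pcna (-1.58), Mcm7 (-1.71) and Chaf1a (-1.90) among G1/S genes, and to Mad2l1 (-1.73), Cdc20 (-2.23), Nuf2 (-1.86) and Plk1 (-2.24) among G2/M genes. Of the members that fell, Rbl1 had a fold change larger in size than 10 of the 37 G1/S genes and E2f7 larger than 6, while every G1/S gene fell more than E2f8, E2f3, E2f4, E2f5 or E2f6. E2f1 fell more than 1 of the 37. In the promoter windows of these lists, 16 of 36 G1/S windows held an E2F site (44.4%, against 2.26% of all) and 20 of 26 G2/M windows held a CHR (76.9%, against 19.2%). Lists of target genes were here searched for the sites of their regulators, so this excess is not a separate result.

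**Figure D4:**
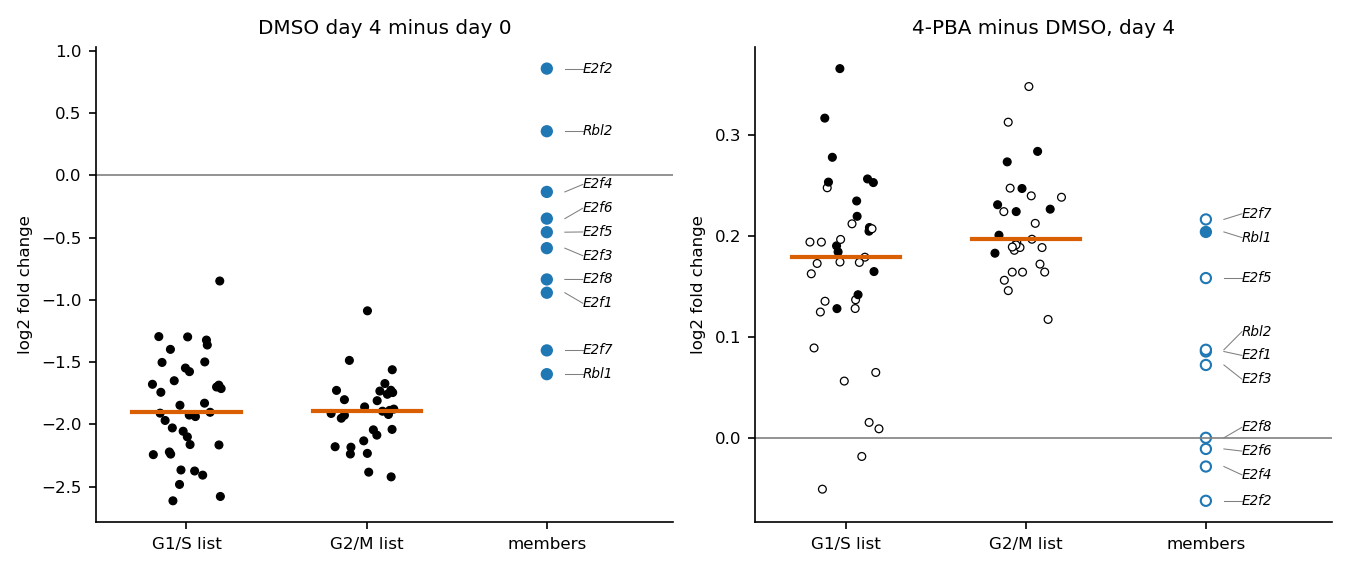
Log2 fold changes of 37 G1/S and 29 G2/M target genes and of the 10 members, 1 point per gene, filled where called, with an orange line at the median of each list. With DMSO against day 0 (left) both lists centre near -1.90 and the members lie between -1.60 and 0.86; with 4-PBA against DMSO (right) the lists centre at 0.18 and 0.20 and Rbl1 is the filled member.

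With 4-PBA, E2f2 and Rbl2 were again higher than at day 0 and the other members lower. All 10 were called, against 65.6% of all tested genes, 8 lower and 2 higher. The comparison shares the day 0 libraries with that of DMSO, so the values are given side by side and not as a second observation. The log2 fold changes with 4-PBA and with DMSO were -0.86 and -0.94 for E2f1, 0.79 and 0.86 for E2f2, -0.51 and -0.59 for E2f3, and -0.16 and -0.13 for E2f4. They were -0.30 and -0.46 for E2f5, -0.36 and -0.35 for E2f6, -1.19 and -1.41 for E2f7, and -0.84 and -0.84 for E2f8. For Rbl1 they were -1.39 and -1.60, and for Rbl2 0.44 and 0.35. Adjusted p-values with 4-PBA ran from 1.04e-22 for Rbl1 to 0.00173 for E2f4.

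**Figure D5:**
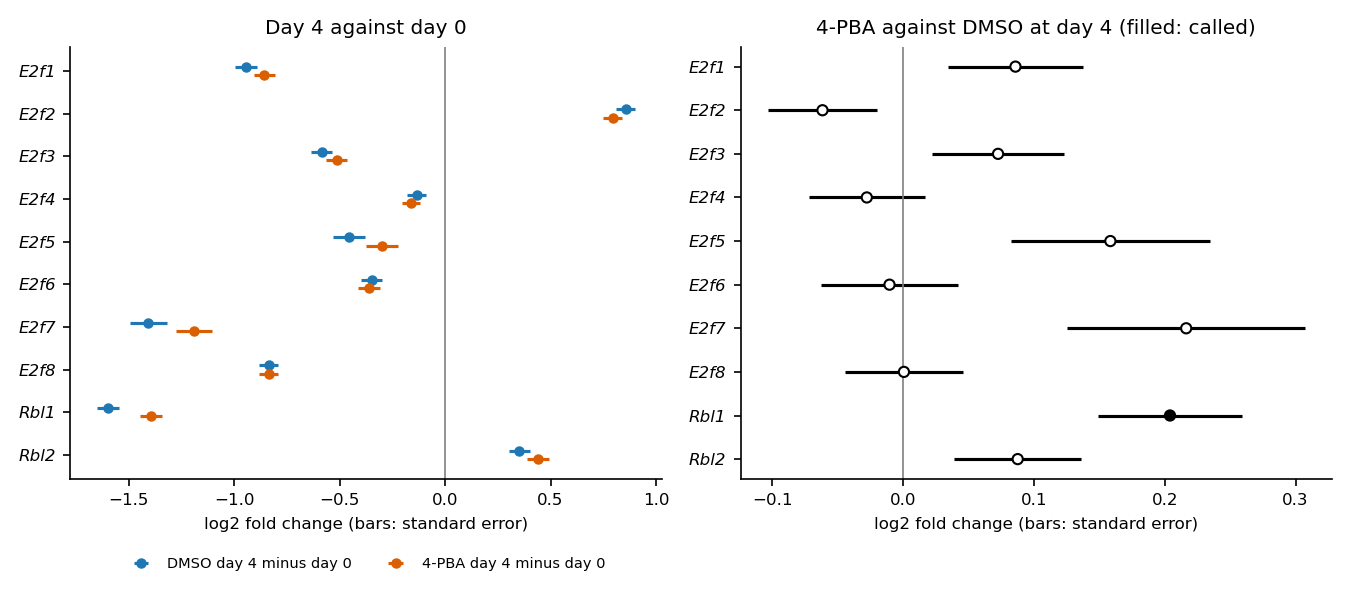
Log2 fold changes of the members with their standard errors, for both day 4 groups against day 0 (left) and for 4-PBA against DMSO (right, filled where the adjusted p was under 0.05). The right-hand axis spans less than 0.5 log2 units, and Rbl1 at 0.20 is the only filled point.

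The direct comparison of 4-PBA with DMSO at day 4 asks what differed between the day 4 groups. Whether the 4-PBA cells also received DMSO is not stated, so compound and solvent may not be told apart. Rbl1 was 1.15-fold higher with 4-PBA, and no other member was called. That is 1 of 10 members, against 4.90% of all tested genes. Rbl1 had 29.1 ± 0.987 CPM under 4-PBA and 25.3 ± 1.40 under DMSO (SD, n = 2). Its log2 fold change was 0.20 (SE 0.0547, adjusted p 0.0213, edgeR), and both 4-PBA libraries were above both DMSO libraries. The call was not stable. It was lost when the day 0 libraries were left out of the fit (adjusted p 0.0687), without DMSO replicate 2 (0.15, adjusted p 0.169), without 4-PBA replicate 1 (0.24, adjusted p 0.0677) and without 4-PBA replicate 2 (0.17, adjusted p 0.274). Over all alternatives its adjusted p ran from 0.00161 to 0.274, and its log2 fold change was positive in each.

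E2f7 had 29.0 ± 0.417 CPM under 4-PBA and 25.0 ± 4.28 under DMSO, a log2 fold change of 0.22 (SE 0.0909, adjusted p 0.261). It was not called, and its value turned on which DMSO library was used: 0.40 without DMSO replicate 1 (adjusted p 6.92e-07) and 0.048 without DMSO replicate 2 (adjusted p 0.797). With no filter beyond 1 count it was called too (adjusted p 0.00580), and its adjusted p over all alternatives ran from 6.92e-07 to 0.797. E2f5 (0.16, SE 0.0764, adjusted p 0.287), E2f3 (0.073, SE 0.0504, adjusted p 0.523) and Rbl2 (0.088, SE 0.0487, adjusted p 0.383) were not called. Both 4-PBA libraries lay above both DMSO libraries for each, as for E2f7 and Rbl1. By an exact permutation test such a separation has a two-sided p of 0.333. Its share over all tested genes was not counted. The 4-PBA and DMSO libraries of E2f1 (0.086, SE 0.0519, adjusted p 0.435), E2f2 (-0.062, SE 0.0420, adjusted p 0.512), E2f4 (-0.028), E2f6 (-0.010) and E2f8 (0.00061) overlapped. The 95% interval of the log2 fold change was -0.092 to 0.093 for E2f8, -0.12 to 0.095 for E2f6 and -0.12 to 0.062 for E2f4. The median over the members was 0.079, against 0.0021 over all tested genes.

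Part of the target genes was higher with 4-PBA. Of 37 G1/S genes 15 were called, all higher, with a median log2 fold change of 0.18, and of 29 G2/M genes 8 were called, all higher, with a median of 0.20. Of all tested genes 4.90% were called, 2.13% higher and 2.78% lower, and the median was 0.0021. Mcm7 rose from 55.0 ± 2.05 to 66.7 ± 1.21 CPM (0.28, adjusted p 1.92e-05), and Ezh2 (0.25), Pcna (0.18) and Prim1 (0.25) followed. Among G2/M genes, Kif11 (0.28), Mad2l1 (0.23), Ccnb2 (0.27) and Plk1 (0.23) had the smallest adjusted p-values. E2f2, E2f4, E2f6 and E2f8 lay below at least 35 of the 37 G1/S genes in this comparison, and Rbl1 lay above 24 of them. DMSO replicate 2 was the lowest library for both lists: the G1/S genes summed to 1323 and 1196 CPM under DMSO and 1413 and 1414 under 4-PBA, and the G2/M genes to 1407 and 1175 under DMSO and 1476 and 1498 under 4-PBA. The same library was the lowest of the 6 for 6 of the 10 members, E2f1, E2f4, E2f5, E2f7, E2f8 and Rbl1, and the part of the target genes' level in the differences of these members was not tested. Without DMSO replicate 2 the medians of the G1/S and G2/M genes were 0.099 and 0.083, and without DMSO replicate 1 they were 0.27 and 0.35. They were 0.18 and 0.22 without 4-PBA replicate 1, and 0.17 and 0.20 without 4-PBA replicate 2. Fewer genes of both lists were called without DMSO replicate 2 or either 4-PBA library, and more without DMSO replicate 1. Over all tested genes, fewer were called without either 4-PBA library, but more without either DMSO library. The loss of list calls without DMSO replicate 2 thus did not go with a general loss of calls. With no filter beyond 1 count, 20 G1/S and 25 G2/M genes were called, against 1095 of 30060 genes in all.

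Among the genes that act with the members, the calls between 4-PBA and DMSO lay mainly in the list of cyclins, CDKs and inhibitors. No call was made for Tfdp1 (0.023), Tfdp2 (0.057) or Rb1 (-0.064), for any of 7 DREAM and MuvB components (from -0.083 for Lin52 to 0.25 for Lin9, whose adjusted p was 0.0800), or for any of 9 corepressors (from -0.097 for Kdm5a to 0.14 for Sin3a). At an unadjusted p under 0.05, edgeR gave 0 of Tfdp1, Tfdp2 and Rb1, 2 of the 7 DREAM and MuvB components and 3 of the 9 corepressors. Of all 17433 genes, 2908 lay under that threshold. DESeq2 and limma-voom called 0 in each of these lists. Without DMSO replicate 1, however, part of the DREAM and MuvB components was called, always higher, and part of Tfdp1, Tfdp2 and Rb1, lower. Neither list was called in full, and calls over all tested genes were also more numerous in that fit. The median log2 fold changes there were 0.096 for the components and 0.045 for Tfdp1, Tfdp2 and Rb1, so the latter median was above 0 despite the lower call. With no filter beyond 1 count, 1 of the 7 components was called. Under the alternatives up to 2 corepressors were called. In the list of cyclins, CDKs and inhibitors 8 of 14 were called, 5 higher and 3 lower, against 4.90% of all tested genes. Ccnd1 (-0.29, adjusted p 4.38e-07), Cdk6 (-0.18, adjusted p 6.13e-04) and Cdkn1a (-0.16, adjusted p 0.00962) fell, and the CDK inhibitor Cdkn2c (0.27, adjusted p 0.00365) rose. Fewer of the 14 were called with DMSO replicate 2, either 4-PBA library or either day 0 library left out. Over all tested genes, calls also became fewer without a 4-PBA or day 0 library, but more without DMSO replicate 2. The median of the list lay between 0.060 and 0.081 with 1 library left out. None of the higher calls, that of Cdkn2c included, was made without DMSO replicate 2 or with either 4-PBA library left out, where the calls that stayed were all lower. Among PRC1.6 partners Yaf2 was called (0.20, adjusted p 0.0148), but not without DMSO replicate 1 or either 4-PBA library.

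Genes of similar course were sought among 10671 tested genes with a mean of at least 5 CPM, by the Euclidean distance between log2 CPM profiles over the 6 libraries, each centred on its own mean. The nearest to Rbl1 were Reep4 (distance 0.036 log2 units), Pcna (0.070) and Mki67 (0.078), and the nearest to E2f8 were Tuba1b (0.054), Orc2 (0.055) and Trim65 (0.056). E2f1 lay nearest Trmt2a (0.058), Ssrp1 (0.063) and Mcub (0.064). For E2f4 they were Steep1, Ganab and Zkscan3 (0.024, 0.024 and 0.025), and for Rbl2 Stat2 (0.027), Ryk (0.049) and Olfm1 (0.052). Of the members' mutual distances, that between E2f1 and E2f8 was 0.14 and that between E2f2 and Rbl1 was 2.66. These distances mostly reflect the difference between day 0 and day 4 and are a description over 6 libraries.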

How the data were processed

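The authors deposited 1 table of raw counts per gene symbol, with 1 column per library, neither normalised nor pooled. Per the labels' protocols, DNase-treated total RNA went into directional Illumina libraries, and per the submitters' processing notes the genome was GRCm39. The aligner, counting tool, annotation and strand setting are not given in the sources used here. Counts of all 6 libraries were fitted with edgeR 4.0.16 in R 4.3.3 across all genes (filterByExpr by group, TMM, robust glmQLFit, 1 mean per group), and genes with a Benjamini-Hochberg adjusted p-value under 0.05 were called. The SE is the log2 fold change divided by the square root of F, and the 95% interval uses the test's degrees of freedom. The common biological coefficient of variation was 3.74%. All libraries carried batch number 1. Replicates differed by more than sampling noise (chi-square per degree of freedom 3.98 to 7.15).

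Transcript lengths and exon overlaps came from GENCODE M21 (GRCm38) by symbol. The alternatives tried were scaling by library size or by DESeq2 size factors, 2 other filters, limma-voom (limma 3.58.1), the Wald test of DESeq2 1.42.0, a fit of 4 libraries, a stricter adjusted p (under 0.01), a replicate block and each library left out, where a lone library is assumed to vary like the other groups. The members, gene lists and tests were chosen with earlier results of these data known. Named genes were all members, every tested gene of lists of 10 or fewer, 4 genes with the smallest adjusted p of longer lists in DMSO against day 0 and in 4-PBA against DMSO, and the 3 nearest profiles of 5 members; Cdkn2a, Cdkn2b, the germline genes and the cell type markers were named as well. Figures used matplotlib 3.10.9.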

Additional observations from a re-analysis of the deposited data

How the results depend on the processing

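Over 15 alternatives each, direction and call were unchanged for 148 of 150 combinations of member and alternative with DMSO against day 0 (E2f4 lost its call in the other 2), for 150 of 150 with 4-PBA against day 0, and for 137 of 150 with 4-PBA against DMSO, where 5 lost and 2 gained a call and 6 changed sign. All 6 concerned uncalled genes. With 1 library left out, E2f4 ran from -0.069 to 0.013, E2f6 from -0.026 to 0.0059 and E2f8 from -0.073 to 0.076, and E2f8 was -0.0014 without a filter and -0.0018 with the stricter one. Between 4-PBA and DMSO, 2 members were called with no filter beyond 1 count, 0 in the fit of only 4 libraries, 0 at an adjusted p under 0.01, and 0 to 2 with 1 library left out. Of all genes, 424 were called at an adjusted p under 0.01, and 295 (without 4-PBA replicate 2) to 1194 (without DMSO replicate 1) with 1 library left out, against 855.

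Differences in the log2 ratio of activators to E2f4 to E2f6 were near 0 and changed sign. Without length, and equally from raw counts, they were 0.14 for DMSO and 0.14 for 4-PBA against day 0. With 1 library left out they lay between -0.044 and 0.024 for DMSO and between -0.038 and 0.030 for 4-PBA against day 0, and between -0.027 and 0.040 for 4-PBA against DMSO. With E2f2 left out, chosen after seeing the data, they were -0.58, -0.51 and 0.072. For the atypical pair over the activators, the values without length were -0.92 and -0.85 against day 0, in place of -0.73 and -0.69. With 1 library left out they were -0.80 to -0.66 for DMSO against day 0, and -0.033 to 0.11 for 4-PBA against DMSO.

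Replicate numbers 1 and 2 recur in each group, but the labels do not say that they mark a shared batch, and deviations of same-numbered libraries did not correlate (-0.0085, -0.023 and -0.033). With the replicate block, 1 member was called between 4-PBA and DMSO and 768 genes in all.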
